A study of Homo sapiens with 2 samples.

Results

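ASNS, PHGDH, PSAT1, SHMT2, MTHFD2 and SLC7A5, 6 genes of serine, one-carbon and asparagine metabolism, were followed in Huh-7, a line established from human hepatocellular carcinoma. The cells were cultured for 24 h with 0.1% DMSO (control) or with 0.1 mM BS008, a derivative of the diuretic amiloride that was studied for its effect on alternative splicing, and 1 mRNA library was sequenced for each condition. The deposited files list exons by position on hg19 and name no genes, so the rows of each gene were taken from a window of hg19 on the gene's strand. This gave 70 of the 239322 exon rows in the files. Whether the BS008 culture also held DMSO is not stated in the labels.

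Liver cells make serine from the glycolytic intermediate 3-phosphoglycerate through PHGDH, PSAT1 and PSPH in turn. SHMT2 then splits serine into glycine and a folate-bound carbon unit inside mitochondria, and MTHFD2 oxidizes that unit, which later serves the synthesis of purines, thymidylate and methionine. ASNS makes asparagine from aspartate and glutamine, and SLC7A5 (LAT1) carries large neutral amino acids across the plasma membrane as a partner of SLC3A2. These genes are textbook targets of ATF4, the transcription factor of the amino acid and integrated stress responses.

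The control library held 55476654 counted reads and the BS008 library 53578432. ALB and AFP, which mark hepatocytes and hepatocellular carcinoma, were abundant in both libraries, with 2164 and 2521 RPKM for ALB and 1178 and 806 RPKM for AFP (control and BS008). PTPRC, a leukocyte marker, had 0 reads in both. RPKM relates the count to exon length and to the total of counted reads. All fold values are ratios of BS008 to control on counts per library total. Their 95% intervals cover counting error only, since neither condition has a replicate and no test between conditions could be made. An effect of BS008 and a difference between these cultures cannot be told apart, nor can more cells with a transcript and more transcript in each cell.

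As a gene list, the 6 genes did not move together. ASNS and MTHFD2 were 4.27-fold and 5.58-fold higher in BS008-treated cells, whereas the other 4 genes lay within 1.2-fold of the control. Of the 70 rows, 68 had at least 10 counts in either library, and 23 of these were at least 2-fold higher after BS008 on log2(CPM + 0.5). Over all 131330 rows with that many counts, 3.73% passed the same limit. The 23 rows were the 14 rows of ASNS and the 9 rows of MTHFD2. No row of the 6 genes was at least 2-fold lower, against 3.79% of all rows. On the same scale, the median log2 ratio was 0.30 over the rows of the 6 genes and -0.04 over all rows. Split by gene, the median was 1.84 for ASNS and 2.07 for MTHFD2, while it lay between -0.34 (PSAT1) and 0.30 (SHMT2) for the other 4. Rows of a gene come from the same transcripts and are not independent of each other.

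**Figure D1:**
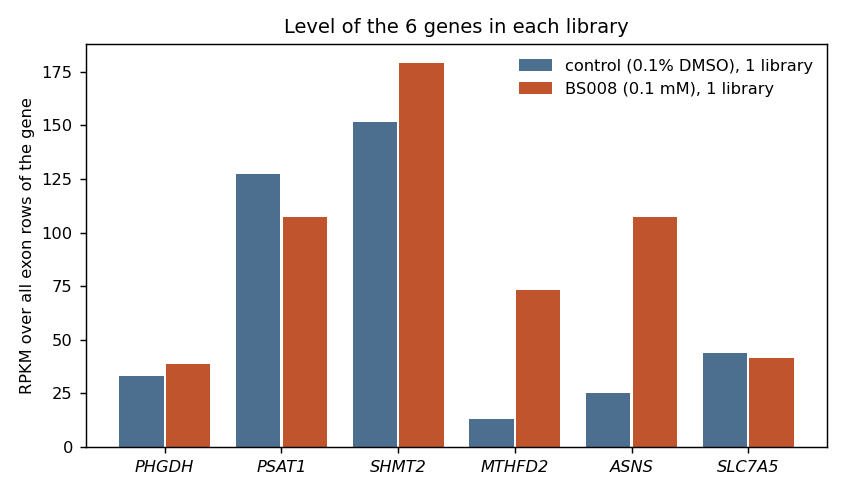
Bars give the RPKM of each gene, from counts and lengths summed over its exon rows, in the control library (blue) and the BS008 library (orange), 1 library each. ASNS went from 25.2 to 107 RPKM and MTHFD2 from 13.1 to 73.1 RPKM, while PHGDH, PSAT1, SHMT2 and SLC7A5 had ratios between 0.844 and 1.18.

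The order of the levels changed with these differences. In control cells, SHMT2 was the highest of the 6 at 151 RPKM and MTHFD2 the lowest at 13.1 RPKM, so that SHMT2 stood 11.5 times above MTHFD2, the enzyme that follows it. In BS008-treated cells this ratio was 2.45. ASNS, next above MTHFD2 in control cells at 25.2 RPKM, had 107 RPKM after BS008 as PSAT1 did. PHGDH stood at 38.7 RPKM and SLC7A5 at 41.6 RPKM. The order of the genes below SHMT2 after BS008 depended on how rows were combined. PHGDH holds a row of 1695 bp (row 2) with 7.23 and 8.63 RPKM. As the median RPKM over the rows of a gene, an alternative chosen after the values were seen, PHGDH had 76.7 RPKM after BS008 and SLC7A5 55.3, ASNS had 125 and PSAT1 99.0.

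ASNS encodes asparagine synthetase. Its 14 rows lie on the minus strand of chromosome 7 between 97481443 and 97501854, and they summed to 3507 counts in the control and 14463 after BS008, a 4.27-fold difference (4.12 to 4.43). Rows were numbered from the 5′ end. From row 3 onward the lengths of 12 consecutive rows equalled those of exons 2 to 13 of the GENCODE transcript ASNS-202, in which exon 2 is untranslated and exon 3 holds the start of the coding part. These 12 rows were 3.05-fold to 4.34-fold higher in BS008-treated cells. The lowest of them was row 10 (97484665 to 97484771), with 258 and 761 counts (3.05-fold, 2.65 to 3.53), and the highest was the last row (97481443 to 97481780), with 506 and 2120 counts (4.34-fold, 3.94 to 4.79).

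The rows at the 5′ end of ASNS stood apart from the rest of the gene. Row 1 (97501663 to 97501854, 192 bp) had 54 counts in control cells and 574 after BS008, a log2 ratio of 3.46 (3.06 to 3.89). Row 2 (97501031 to 97501477, 447 bp) had 66 and 1242 counts, a log2 ratio of 4.28 (3.93 to 4.66), which is 19.5-fold. Row 3 (97499090 to 97499125, 36 bp) had only 37 and 146 counts, a log2 ratio of 2.03. Between row 2 and row 3 the log2 ratio thus dropped by 2.25. Among all 73695 pairs of neighbouring rows on a strand within 10 kb and with at least 30 counts in both libraries, 1.32% dropped at least 2-fold from the upstream to the downstream row. Of the 58 such pairs within the 6 genes, this was the only 2-fold difference in either direction (2.43% of all pairs).

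In shares of the gene's reads, row 2 held 1.88% (95% Wilson interval 1.48 to 2.39%) in the control and 8.59% (8.14 to 9.06%) after BS008, the largest change of share in ASNS. Row 1 held 1.54% in the control and 3.97% after BS008. Together both rows took 3.42% of the ASNS reads in control cells and 12.6% after BS008. Row 2 has a length that no GENCODE exon of ASNS has, whereas 13 of the 14 rows match one. Without rows 1 and 2, ASNS had 3387 and 12647 counts and was 3.87-fold higher (3.72 to 4.02).

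**Figure D2:**
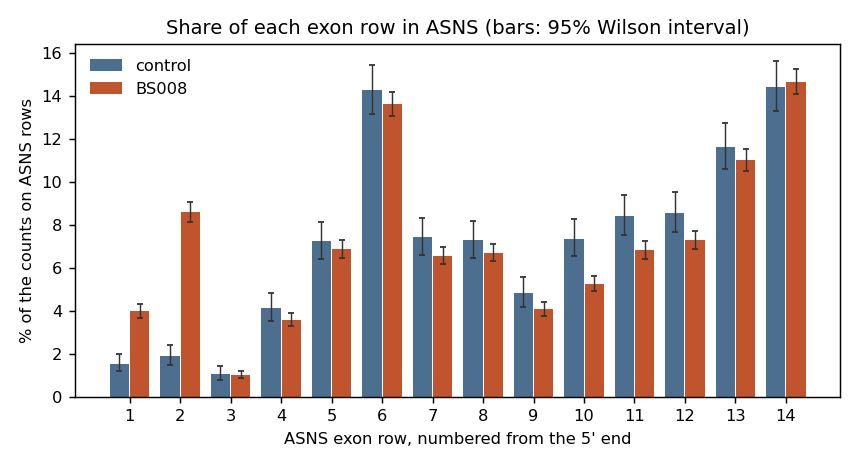
Bars give the percent of all ASNS counts that fell on each of the 14 exon rows, numbered from the 5′ end, in control (blue) and BS008 (orange) cells, and thin lines give 95% Wilson intervals. Rows 1 and 2 took a larger share after BS008 (3.97% and 8.59%) than in control cells (1.54% and 1.88%), with intervals that do not overlap.

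ATF4 binds a composite C/EBP-ATF element whose core can be written TGATGNAA, and this word was sought on both strands of the RefSeq promoters (GRCh38.p14, from 250 bases before to 50 after each transcript start). It occurred in 3.62% of all 35116 promoters. By gene, 4.46% of all 27305 genes held it, and 7.03% of the 5191 genes with several promoters. Of the 6 genes, 5 had at least 1 promoter in the table, SHMT2 being missing, and only ASNS held the word, in 1 of its 2 promoters. The 150 bases before the upstream ASNS start and before the MTHFD2 start are shown, since these are the genes of the 6 that passed 2-fold, with TGATGNAA in capitals. They lie at chr7:97872409-97872558 (minus strand) and chr2:74198465-74198614 (plus strand) of GRCh38.p14.
ASNS: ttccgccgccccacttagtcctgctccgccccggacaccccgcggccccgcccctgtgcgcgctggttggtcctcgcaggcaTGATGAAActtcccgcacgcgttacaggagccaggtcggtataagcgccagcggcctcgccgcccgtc
MTHFD2: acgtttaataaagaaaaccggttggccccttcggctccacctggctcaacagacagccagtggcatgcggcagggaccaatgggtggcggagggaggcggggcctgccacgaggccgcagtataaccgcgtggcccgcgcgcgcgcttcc
In ASNS the word begins 68 bases before the start. No match lay in the MTHFD2 promoter, in that of the other ASNS start or in the promoters of PHGDH, PSAT1 and SLC7A5.

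MTHFD2 encodes the mitochondrial methylenetetrahydrofolate dehydrogenase and cyclohydrolase, known for its high expression in embryos and tumours. Its 9 rows lie on the plus strand of chromosome 2 between 74425690 and 74442422, with 1661 counts in the control and 8947 after BS008. This is a 5.58-fold difference (5.29 to 5.88). The lengths of rows 3 to 8 equalled those of exons 2 to 7 of transcript MTHFD2-201. Among these coding rows, row 4 (74434831 to 74434953) had the smallest difference, with 168 and 706 counts (4.35-fold, 3.67 to 5.18), and row 8 (74438868 to 74438993) the largest, with 199 and 1159 counts (6.03-fold, 5.18 to 7.04). Between them lay row 3 with 106 and 548 counts (5.35-fold), row 5 with 195 and 874 (4.64-fold), row 6 with 116 and 519 (4.63-fold) and row 7 with 138 and 702 (5.27-fold). Outside the matched exons, row 1 at the 5′ end had 47 and 230 counts (5.07-fold, 3.69 to 7.09). The last row (74441206 to 74442422, 1217 bp) had 690 and 4168 counts (6.25-fold, 5.77 to 6.79).

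Every row of MTHFD2 was higher after BS008, and 8 of the 9 lay between 4.35-fold and 6.25-fold. The exception was row 2 (74428509 to 74428606, 98 bp), whose length is in no GENCODE exon of MTHFD2. It had 2 counts in the control and 41 after BS008, a ratio of 21.2 with a counting interval of 5.51 to 181. The share of MTHFD2 reads on this row was 0.12% in control cells and 0.46% after BS008. Rows 8 and 9 overlap rows on the other strand by 87 and 74 bases, and the reads were not stated to be counted by strand. Without both, MTHFD2 was higher by 2.28 on the log2 scale, against 2.48 with them.

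**Figure D3:**
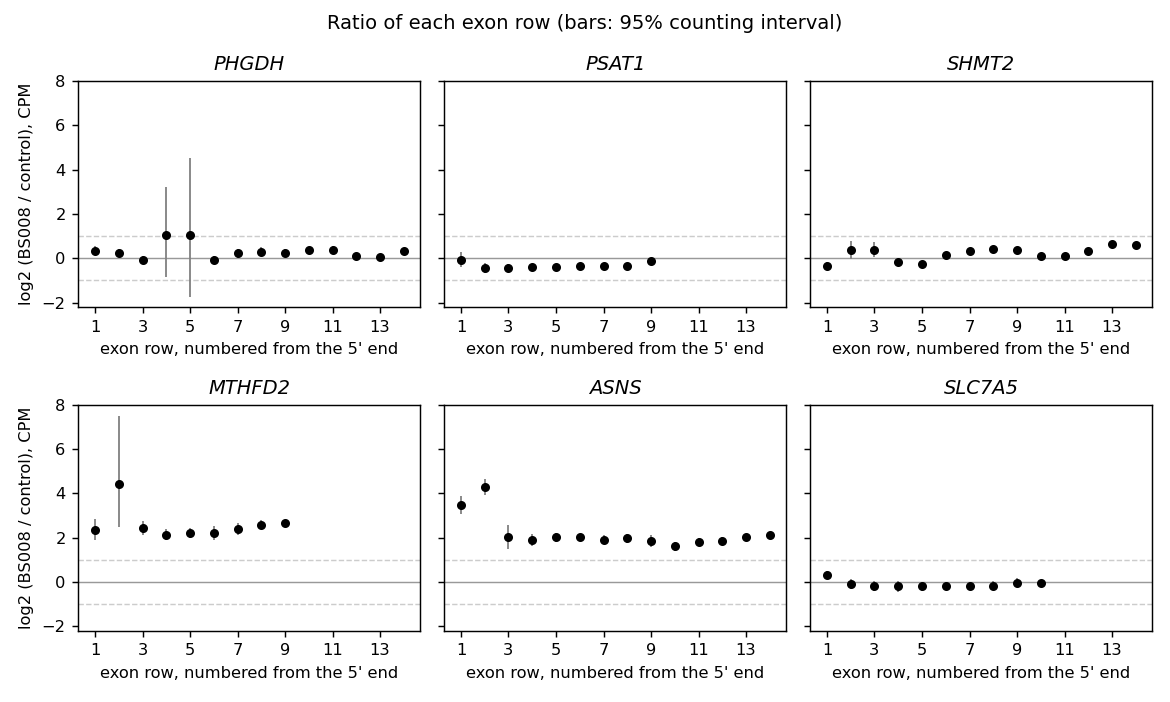
Each point is an exon row, numbered from the 5′ end, with the log2 ratio of BS008 to control on CPM (no pseudocount) and its 95% counting interval; dashed lines mark 2-fold. All points of MTHFD2 and ASNS lie above the upper line, ASNS rows 1 and 2 lie above the other rows of the gene, and rows 4 and 5 of PHGDH have wide intervals because they had at most 8 counts.

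SHMT2 encodes the mitochondrial serine hydroxymethyltransferase. Its 14 rows on the plus strand of chromosome 12 (57623552 to 57628714) had 21849 counts in control cells and 24954 after BS008, a 1.18-fold difference (1.16 to 1.20). The rows did not all lie on the same side of the control. Row 1 (57623552 to 57623594) had 620 and 474 counts and was lower, at 0.792-fold (0.701 to 0.894), and so was row 5 (57625264 to 57625343) with 1307 and 1070 counts (0.848-fold). The last rows were higher, with 838 and 1263 counts on row 13 (1.56-fold, 1.43 to 1.70) and 3242 and 4801 counts on row 14 (1.53-fold, 1.47 to 1.60). The SHMT2 reads on row 14 (57628017 to 57628714) made up 14.8% (14.4 to 15.3%) of the gene in the control and 19.2% (18.8 to 19.7%) after BS008. Row 14 overlaps a row on the other strand by 27 bases, which itself had 168 and 38 counts.

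PHGDH and PSAT1 encode the first enzymes of serine synthesis, the dehydrogenase and the aminotransferase. PHGDH (plus strand of chromosome 1, 120254419 to 120286848) had 7592 counts in control cells and 8525 after BS008, 1.16-fold (1.13 to 1.20). The lowest of its rows was row 6 (120269474 to 120269528) with 540 and 489 counts (0.938-fold, 0.828 to 1.06), and the highest was row 10 (120279737 to 120279889) with 560 and 699 counts (1.29-fold, 1.15 to 1.45). Its last row (120286509 to 120286848), which held 26.0% of the reads in the control and 27.7% after BS008, had 1971 and 2358 counts. PHGDH rows 4 and 5 are left out of this range because they had 2 to 8 counts in each library. PSAT1 (plus strand of chromosome 9, 80912059 to 80945007) had 15416 and 12563 counts, 0.844-fold (0.824 to 0.864), and all 9 of its rows lay below the control, from 0.730-fold to 0.955-fold. Row 1 at its 5′ end had 155 and 143 counts (0.955-fold, 0.756 to 1.21), an interval that spans the control. Rows 2 to 8 formed a block between 0.730-fold and 0.789-fold. In order, they had 386 and 272, 642 and 457, 1374 and 1017, 1036 and 771, 2074 and 1573, 1792 and 1365, and 1410 and 1070 counts (control and BS008). The last row (80943897 to 80945007) had 6547 and 5895 counts (0.932-fold, 0.900 to 0.966). Its share of the gene went from 42.5% (41.7 to 43.3%) to 46.9% (46.1 to 47.8%). The differences of both genes are small beside the 2-fold limit, and with no replicate their place within the variation between cultures is unknown.

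SLC7A5 had 11040 counts in control cells and 10116 after BS008 over 10 rows on the minus strand of chromosome 16 (87863630 to 87903100), 0.949-fold (0.923 to 0.975). The row at its 5′ end (87902491 to 87903100) had 491 and 588 counts (1.24-fold, 1.10 to 1.40), while rows 2 to 10 had ratios from 0.872-fold to 0.972-fold. The counting intervals of rows 2, 3, 4, 8 and 9 span the control. Rows 2 to 9 had 370 and 333, 405 and 344, 266 and 224, 513 and 432, 607 and 515, 551 and 465, 466 and 402, and 426 and 400 counts, in that order. The last row (87863630 to 87866631), 3002 bp long, had 6945 and 6413 counts and held 62.9% of the reads in control cells and 63.4% after BS008.

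The log2 ratio of the last row exceeded that of the remaining rows together by 0.03 (ASNS) to 0.45 (SHMT2). How often this holds over all genes could not be computed, as the files do not group rows by gene. It was not particular to these genes, however. Among the other pathway genes described next, the last row had a higher log2 ratio than the whole gene in all but PSPH and SHMT1. The last row and the whole gene had 2.72 and 2.51 in SLC3A2, and -1.50 and -1.64 in GLDC. In PSPH these values were -0.29 and -0.04, and in SHMT1 -1.11 and -1.08.

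To place the 6 genes in their pathway, 14 other genes were located by hg19 windows in the same way. ATF4 was left out because it has 1 row, while the length check needs at least 3 consecutive rows, so that it could not pass. The length of this row also matched no GENCODE exon of the gene. The remaining 13 genes had 231 rows. Of the 13, SLC3A2, SLC38A2 and ALDH1L2 exceeded the control 2-fold or more, and GLDC and SHMT1 fell short of it by as much, which makes 3 genes upward and 2 downward. By rows, 19 of 204 with enough counts (9.31%) passed the limit upward and 24 (11.8%) downward, against the 3.73% and 3.79% of all rows. These rows came from few genes: upward 9 of SLC3A2 and 10 of SLC38A2, downward 20 of GLDC, 3 of SHMT1 and 1 of SLC1A5. With the median over a gene's rows in place of summed counts, ALDH1L2 and SHMT1 no longer passed (log2 ratios 0.69 and -0.92). No share of all genes could be given, for lack of gene names in the files.

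**Figure D4:**
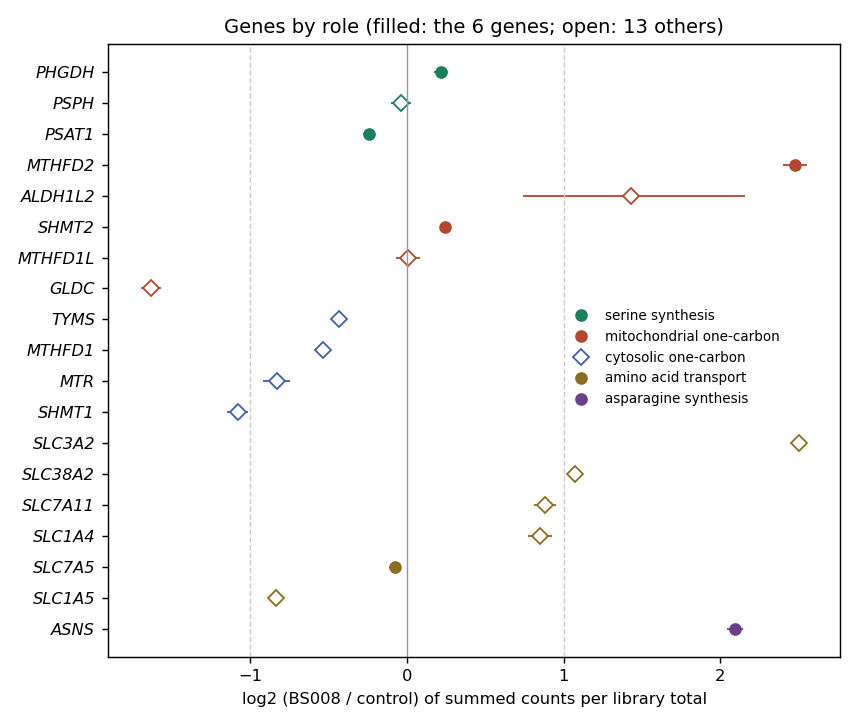
Points give the log2 ratio of BS008 to control of the summed counts per library total for the 6 genes (filled) and 13 others (open) grouped by role, with 95% counting intervals and dashed lines at 2-fold. MTHFD2, ASNS and SLC3A2 lie beyond 2 on the log2 scale, and the 4 cytosolic one-carbon genes all lie below 0. Of these 4, only SHMT1 lies past the lower dashed line.

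The serine synthesis genes did not reach 2-fold in either direction, as PSPH, the phosphatase of the last step, had 4387 and 4124 counts (0.973-fold, 0.933 to 1.02). Among the mitochondrial genes, MTHFD1L, which releases formate at the end of the same route, had 2614 and 2536 counts (1.00-fold, 0.951 to 1.06), unlike MTHFD2. Its rows lay on both sides of the control. Row 19 had 217 and 156 counts (0.744-fold, 0.602 to 0.919), and row 31 had 199 and 264 (1.37-fold, 1.14 to 1.66). ALDH1L2, which oxidizes the carbon unit to carbon dioxide, was near the limit of detection with 25 and 65 counts over 23 rows (2.69-fold, 1.67 to 4.46). GLDC, the decarboxylase of the glycine cleavage system, was 3.11-fold lower (2.97 to 3.25), with 8412 counts in control cells and 2615 after BS008, and 20 of its 25 rows passed the 2-fold limit.

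All 4 cytosolic genes had fewer reads in BS008-treated cells, with a median log2 ratio of -0.69. The median over all rows was itself slightly below 0, at -0.04 on log2(CPM + 0.5). Of the 4 genes, only SHMT1 passed 2-fold, and it did not by the median over its rows (-0.92). SHMT1, the cytosolic counterpart of SHMT2, had 5571 and 2542 counts (2.12-fold lower, 2.02 to 2.22). MTHFD1, which carries out the MTHFD2 reactions in the cytosol, had 15508 and 10308 counts (1.45-fold lower, 1.42 to 1.49). Per length, MTHFD2 stood at 0.17 of the MTHFD1 level in control cells and at 1.38 times that level after BS008, and SHMT2 at 9.73 and 24.4 times the SHMT1 level. By median RPKM over rows, these ratios were 0.318 and 1.89 for MTHFD2 and 6.86 and 14.9 for SHMT2. SHMT1 holds rows of 1251 and 2757 bp with few reads for their length. MTR, methionine synthase, had 2929 and 1588 counts (1.78-fold lower, 1.68 to 1.89). Its last row, of 6423 bp, held 59.2% of the MTR reads in the control. The median log2 ratio over the MTR rows was -0.39 on log2(CPM + 0.5). TYMS, thymidylate synthase, had 8207 and 5857 counts (1.35-fold lower, 1.31 to 1.40). Rows of SHMT1, MTHFD1 and TYMS also overlap rows of the other strand, whose reads cannot be told apart from theirs.

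Among the transporters, SLC3A2 showed the largest difference, with 5750 counts in the control and 31539 after BS008 (5.68-fold, 5.52 to 5.84). SLC3A2 encodes the heavy chain that brings SLC7A5 to the membrane, and its RPKM was 0.897 times that of SLC7A5 in the control and 5.37 times after BS008. The difference did not extend over the whole of SLC3A2. Rows 1 to 4 had 605 and 653 counts (1.12-fold, 0.999 to 1.25), and rows 5 to 13 had 5145 and 30886 counts (6.22-fold, log2 ratio 2.64, 2.59 to 2.68). Row 1 alone had 280 and 366 counts (1.35-fold, 1.16 to 1.59), while rows 2 to 4 lay from 0.874-fold to 0.955-fold. Row 4 (chromosome 11, 62644256 to 62644351) had 103 and 95 counts, and row 5 (62648287 to 62648919) had 874 and 6285.

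**Figure D5:**
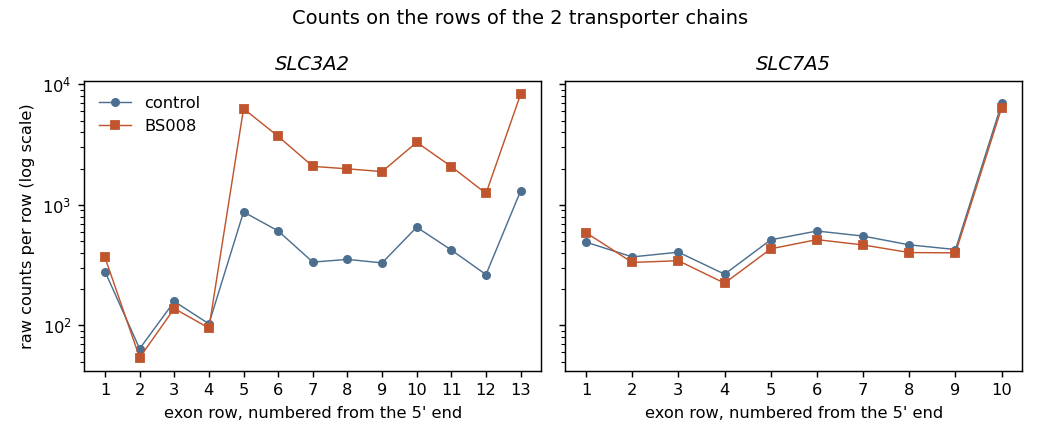
Raw counts on each exon row of SLC3A2 (left) and SLC7A5 (right), numbered from the 5′ end, on a log scale, in control (circles) and BS008 (squares) cells. The libraries lie close over rows 1 to 4 of SLC3A2, with row 1 at 1.35-fold, and part from row 5 onward, and they run together along SLC7A5.

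Of the other transporters, SLC38A2 (SNAT2), which takes up small neutral amino acids, had 13433 and 27285 counts (2.10-fold, 2.06 to 2.15). SLC7A11, the cystine and glutamate exchanger, had 2471 and 4398 (1.84-fold, 1.75 to 1.94), of which 2086 and 3739 lay on its last row, where rows of the other strand overlap by 102 and 174 bases. SLC1A4, which carries serine and alanine, had 2279 and 3965 (1.80-fold, 1.71 to 1.90). SLC1A5, the glutamine carrier, was on the other side of the control with 11381 and 6163 counts (1.78-fold lower, 1.73 to 1.84).

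Promoters of 10 of the 13 pathway genes were in the table, and 4 genes held TGATGNAA or its complement, against 4.46% of all 27305 genes. These 4 genes have 2 to 4 promoters each in the table, more than the mean of 1.29 per gene, and of all 5191 genes with several promoters 7.03% held the word. The sites are shown with up to 11 bases on either side and the word in capitals, for comparison with that of ASNS, at chr7:97872458-97872487 (ASNS), chr6:150866346-150866375 (MTHFD1L), chr19:46784893-46784922 (SLC1A5), chr2:64989381-64989410 (SLC1A4) and chr11:62881725-62881748 (SLC3A2) of GRCh38.p14.
ASNS: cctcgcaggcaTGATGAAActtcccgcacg
MTHFD1L: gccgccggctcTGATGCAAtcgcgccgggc
SLC1A5: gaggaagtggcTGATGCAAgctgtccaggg
SLC1A4: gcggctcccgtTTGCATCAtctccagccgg
SLC3A2: tgcaggactccTTACATCAgctcc
In SLC1A4 and SLC3A2 the word is on the complementary strand. SLC3A2 has 3 promoters in the table, and the match lies in 1 of them, 37 bases after the transcript start. In MTHFD1L the same site lies 129 or 90 bases before the start or 24 after it, depending on the promoter. The site lies 97 bases before the start in SLC1A5 and 7 before it in SLC1A4. Among the genes with a match, SLC3A2 was 5.68-fold and SLC1A4 1.80-fold higher, MTHFD1L was at 1.00-fold and SLC1A5 was 1.78-fold lower. PSPH, ALDH1L2 and SLC7A11 had no entry.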

How the data were processed

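RNA of Huh-7 cells was made into libraries with an mRNA-seq kit, and both libraries were used, 1 for each condition. For each of 239322 exon rows the authors deposited a raw count and an RPKM value, which scales the count to row length and library total. The deposited RPKM values were recomputed from the counts to within 4.72e-06. The build hg19 is named in the submitters' processing notes; the aligner, the counter and the annotation are not given in the sources used here. Groups follow the treatment entry of each sample, since a shared protocol field names BS008 for both.

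Windows on hg19 assigned rows to genes. The members, gene lists, fold limits and pathway windows were chosen with earlier results of these data known, and the comparison of neighbouring rows and the 4 marker windows after the counts were seen. A window was kept where at least 3 consecutive row lengths equalled those of consecutive exons of 1 GENCODE release 29 transcript of that gene. Only lengths were compared, and no coordinates were converted. ATF4, which has 1 row and so could not pass, was left out, and GPC3, a further liver marker, did not pass. Genes named are the 6 members and the pathway list; some further genes of the pathway are not reported here. Each row was given for members with up to 10 rows, and for longer ones the rows with the highest ratio, the lowest ratio and the largest change of share among rows with at least 100 counts. Further rows were named after their values were seen.

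Rows were called where either library had 10 counts or more, at 2-fold on log2(CPM + 0.5). This pseudocount equals 27.7 control counts and 26.8 BS008 counts, so folds of named rows and genes were computed without it, with exact (Clopper-Pearson) intervals conditional on the sum of both counts. A share of a library is detectable from 3 counts (5.41e-06% and 5.6e-06% of the total). The fold call and the interval were tested on simulated data. PSAT1, MTHFD2, ASNS and SLC7A5 have pseudogenes named in RefSeq (4, 7, 5 and 2), and reads could have been split between copies. The same holds for the pathway genes PSPH, GLDC, SHMT1 and MTHFD1 (1 each) and TYMS (2). Python 3.11.15, numpy 2.4.6, scipy 1.17.1, pandas 2.3.3, R 4.3.3, edgeR 4.0.16 (TMM factors) and DESeq2 1.42.0 (size factors) were used.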

Additional observations from a re-analysis of the deposited data

Results flagged for a closer look

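Rows on the minus strand that overlap rows 8 and 9 of MTHFD2 were flagged because they lie outside the rows summed for the gene and had more reads after BS008. The row from 74438733 to 74438954 on chromosome 2 had 120 counts in the control and 763 after BS008 (log2 ratio 2.72, counting interval 2.44 to 3.01). The row from 74441529 to 74441602, which lies wholly within row 9 of MTHFD2, had 98 and 709 counts (log2 ratio 2.91, 2.60 to 3.23). Reads of MTHFD2 and reads of a transcript on the other strand cannot be told apart here.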

How the results depend on the processing

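The number of rows of the 6 genes at least 2-fold higher was 21 to 23 under the alternative pseudocounts, count minimums, normalizations and row sets (23 as reported), and 25 passed 1.5-fold, against 11.5% of all rows. None was lower by either limit, against 13.9% of all rows at 1.5-fold, and the median log2 ratio was 0.28 to 0.35. ASNS and MTHFD2 stayed above 2-fold, and the other 4 genes within it, under TMM factors, DESeq2 size factors, medians over rows and a library total without mitochondrial rows, the last added after seeing the data. Of 47 alternative values for single genes, 45 stayed on their side of the 2-fold limit. With medians over rows, ALDH1L2 (0.69, from the 1 row with enough counts) and SHMT1 (-0.92) no longer passed it, so that 2 pathway genes were at least 2-fold higher and 1 lower. At 1.5-fold these numbers were 5 and 4. Shares of the last rows of SHMT2 and MTHFD2 could not be recomputed without overlapping rows, since they are such rows. No paired analysis was possible because each condition has 1 library, and no replicate could be left out. Few reads limit PHGDH rows 4 and 5, MTHFD2 row 2 and ALDH1L2.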
